A study of Homo sapiens with 6 samples.

Results

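The MHC class I antigen presentation genes followed here are 9 genes, taken by their symbols from the 24526 genes of the deposited table. They are the class I heavy chain genes HLA-B, HLA-C and HLA-E, the light chain gene B2M, the peptide transporter genes TAP1 and TAP2, the tapasin gene TAPBP and the immunoproteasome genes PSMB8 and PSMB9. All 9 members were among the 16297 genes that passed the filter on low counts and were tested. The study asked how the transcriptome of melanoma cells responds to loss of RIPK4, a kinase with a role in the differentiation of keratinocytes and in NF-κB signalling. WM266.4, an established human melanoma cell line, was transfected with a RIPK4-specific siRNA (RIPK4.si, 3 cultures) or with a negative control siRNA (neg.si, 3 cultures), and RNA was taken 48 h later. The siRNA guides the cell's silencing complex to matching mRNA, which is then cut. Both groups were of the same line, were transfected, and have no cytokine treatment in their labels, so that the levels below are taken as those of cells without added interferon or TNF-α. The study used a single siRNA against RIPK4 and a single negative control, and effects of the siRNA on transcripts other than its target cannot be told apart from those of RIPK4 loss.

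MHC class I molecules display peptides from proteins made inside the cell to cytotoxic T lymphocytes and natural killer cells. The proteasome cuts the proteins, TAP1 and TAP2 form the transporter that carries the peptides into the endoplasmic reticulum, tapasin tethers the empty heavy chain to the transporter, and the loaded heavy chain reaches the surface with β2-microglobulin. Interferons raise the whole pathway through IRF and STAT factors, NF-κB acts on the heavy chain and B2M promoters, NLRC5 is the class I transactivator, and melanoma cells are known for losing parts of the pathway.

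Promoter windows are given for a part of the members, and those of HLA-B, HLA-C, B2M, TAP1 and PSMB9 are shown because HLA-B and HLA-C are close paralogs, B2M is their common light chain, and TAP1 and PSMB9 are neighbours with a like pattern among the libraries. The windows hold the 250 bases before the start of each gene in RefSeq on GRCh38.p14, read in the direction of transcription, and for B2M the 193 bases that lie outside an annotated exon. Capitals mark, on either strand, the IRF pair GAAANNGAA, the CCAAT box, TGACG, the core of the cyclic AMP response element, and the NF-κB consensus. HLA-E is not in the table of windows and is only named. PSMB8 and TAP1 have 2 listed starts each, and for TAP1 the window of the start at 32853704 is given.
HLA-B, chr6:31357180-31357429, minus strand: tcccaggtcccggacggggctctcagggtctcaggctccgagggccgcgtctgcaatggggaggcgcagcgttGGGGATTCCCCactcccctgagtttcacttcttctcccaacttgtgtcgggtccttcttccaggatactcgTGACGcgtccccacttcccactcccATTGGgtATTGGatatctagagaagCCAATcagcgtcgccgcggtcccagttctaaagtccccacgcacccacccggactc
HLA-C, chr6:31272093-31272342, minus strand: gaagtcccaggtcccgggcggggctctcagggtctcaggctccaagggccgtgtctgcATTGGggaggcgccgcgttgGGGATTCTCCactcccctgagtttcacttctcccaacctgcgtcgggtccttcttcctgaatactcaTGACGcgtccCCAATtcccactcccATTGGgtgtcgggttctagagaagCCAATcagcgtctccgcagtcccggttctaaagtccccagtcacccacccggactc
B2M, chr15:44711324-44711516, plus strand: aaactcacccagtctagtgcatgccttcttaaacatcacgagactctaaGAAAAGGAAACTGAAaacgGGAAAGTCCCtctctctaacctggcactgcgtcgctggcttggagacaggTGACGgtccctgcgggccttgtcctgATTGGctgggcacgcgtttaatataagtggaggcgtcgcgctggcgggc
TAP1, chr6:32853705-32853954, minus strand: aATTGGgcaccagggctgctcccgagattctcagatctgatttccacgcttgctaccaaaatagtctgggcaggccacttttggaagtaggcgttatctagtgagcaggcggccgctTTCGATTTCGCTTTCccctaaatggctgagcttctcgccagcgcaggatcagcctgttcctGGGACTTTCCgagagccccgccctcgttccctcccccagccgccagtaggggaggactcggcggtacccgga
PSMB9, chr6:32853942-32854191, plus strand: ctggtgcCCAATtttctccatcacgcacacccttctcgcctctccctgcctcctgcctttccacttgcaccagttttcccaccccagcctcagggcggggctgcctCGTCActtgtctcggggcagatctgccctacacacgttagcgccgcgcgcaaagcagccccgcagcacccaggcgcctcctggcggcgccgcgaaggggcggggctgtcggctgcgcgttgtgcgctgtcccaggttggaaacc

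The HLA-B and HLA-C windows were identical at 226 of 254 aligned positions (89.0%). Both held TGACG, at 106 to 102 bases before the start in HLA-B and at 105 to 101 in HLA-C, and both held a CCAAT box at 56 to 52 bases before the start. The NF-κB consensus lay between 177 and 167 bases before the start in HLA-B, where overlapping letters matched 4 times, and between 172 and 163 in HLA-C. B2M held 2 overlapping IRF pairs between 144 and 130 bases before its start, next to an NF-κB consensus at 125 to 116, and TGACG at 75 to 71. TAP1 held 2 overlapping IRF pairs between 133 and 119 bases before its start and an NF-κB consensus at 72 to 63. Of the windows not printed, TAPBP held 2 IRF pairs and an NF-κB consensus and TAP2 held 1 IRF pair. In the windows of HLA-B, HLA-C, PSMB8 and PSMB9 the letters GAAANNGAA were not found. Only those letters were searched, so an IRF site with other letters or spacing would not be marked. The HLA-B and HLA-C windows both hold tttcacttc, which those letters do not match, so the search does not show that they lack such a site. The TAP1 and PSMB9 windows lie back to back on opposite strands and overlap at their far ends, and the CCAAT letters at the far end of each are the same bases. Across the 35116 promoter windows of the table, an IRF pair was found in 6.88%, a CCAAT box in 32.01%, TGACG in 21.22% and the NF-κB consensus in 9.96%. A match of letters is a description of the sequence and not a measured binding site.

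Of the 9 members, 8 lie on chromosome 6 of GRCh38 and B2M lies on chromosome 15, at 44711487 to 44718877 on the plus strand. HLA-E lies at 30489509 to 30494194 on the plus strand, HLA-C at 31268749 to 31272130 and HLA-B at 31269491 to 31357188, both on the minus strand. TAP2 (32821833 to 32838770), PSMB8 (32840717 to 32844679) and TAP1 (32845209 to 32853978) follow each other on the minus strand, PSMB9 runs on the plus strand from 32844136 to 32859851, and TAPBP lies at 33299694 to 33314387 on the minus strand. The span given for HLA-B covers 2640 bases of HLA-C, and the span of PSMB9 covers all 8770 bases of TAP1 and 544 bases of PSMB8. Strand was ignored in counting, so read pairs in exons shared by PSMB8, PSMB9, TAP1 and the antisense gene PSMB8-AS1 could not be assigned by strand. The heavy chain genes are closely related paralogs, and their separate counts are uncertain because read pairs can match more than 1 of them.

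Counts on genes summed to between 28464057 and 31688095 in the 6 libraries, and the 9 members took between 0.181% and 0.213% of them. Replicates of a group differed from each other by more than sampling noise (chi-square per degree of freedom from 18.36 to 132.3). The libraries neg.si replicate 1 and neg.si replicate 3 stood apart in opposite ways. Across the genes tested, the rank correlation between the GC content of a gene and its level relative to its mean was 0.562 in neg.si replicate 1 and -0.554 in neg.si replicate 3, while the other 4 libraries lay between -0.0834 and 0.173. Each fold change below, and each ratio compared between the groups, was therefore also computed after this trend had been removed from each library. The silenced gene RIPK4 was at 85.8, 76.5 and 54.7 CPM (counts relative to the normalized size of a library) in neg.si replicates 1, 2 and 3 and at 19.9, 16.7 and 21.5 CPM in RIPK4.si replicates 1, 2 and 3. It fell to 26.8% of the neg.si level, with a log2 fold change of -1.90 (standard error 0.203, edgeR adjusted p = 0.0102). Its adjusted p was above 0.05 when neg.si replicate 2 (0.106) or RIPK4.si replicate 1, 2 or 3 (0.0940, 0.0622 and 0.0725) was left out, and its log2 fold change then lay between -1.98 and -1.79.

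All 8 melanocyte lineage markers were detected, from MLANA at 12.5 ± 1.19 CPM and TYRP1 at 27.9 ± 2.05 CPM to TYR at 1348 ± 112 CPM in neg.si (SD, n = 3). Of the 8 lineage markers, PMEL, which encodes a melanosome matrix protein, fell from 280.0 ± 31.5 to 114 ± 8.11 CPM (log2 fold change -1.30, edgeR adjusted p = 0.0111). Its adjusted p was 0.129 without neg.si replicate 2 and 0.0992, 0.0738 and 0.121 without RIPK4.si replicate 1, 2 or 3, and its log2 fold change stayed between -1.38 and -1.20 whichever library was dropped. Of the 8 log2 fold changes 5 were negative and 3 positive (TYRP1 0.36, MLANA 0.06 and MITF 0.04, none called). DESeq2 called 3 of the 8 lower, against 2.78% of all genes in either direction, adding the pigment enzyme genes TYR and DCT. TYR was at 911 ± 36.1 CPM in RIPK4.si (DESeq2 adjusted p = 0.0417, edgeR adjusted p = 0.148, and 0.137 with the GC trend removed). DCT had a log2 fold change of -0.73 (DESeq2 adjusted p = 0.00361, edgeR adjusted p = 0.0854, and 0.0198 with the GC trend removed). The summed level of the 8 was 3574 to 4012 CPM in the neg.si libraries and 2635 to 2759 CPM in the RIPK4.si libraries. Of 8 leukocyte markers, 6 were in the table and 3 passed the filter on low counts, and those 6 summed to 5.67 to 8.14 CPM in neg.si and 3.50 to 4.81 CPM in RIPK4.si. CD3E had no count in neg.si replicate 3, and most of the sum was ITGAM, at 5.17 ± 1.12 and 2.62 ± 0.650 CPM without overlap (log2 fold change -0.98, edgeR adjusted p = 0.167, DESeq2 adjusted p = 0.0477). With the GC trend removed the edgeR adjusted p of ITGAM was 0.0609. The part of these markers in the levels of the class I genes was not tested.

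None of the 9 members passed the test between RIPK4.si and neg.si. At an adjusted p under 0.05 edgeR called 0 of 9 members, against 0.767% of all genes tested. At an unadjusted p under 0.05 it was 0 of 9 against 10.8%. DESeq2 called 0 of 9 members against 2.78% of the genes to which it gave an adjusted p, and edgeR after removal of the GC trend called 0 of 9 against 3.28%. For none of the members did the 3 RIPK4.si libraries lie wholly above or below the 3 neg.si libraries, whereas 17.6% of all genes tested showed such a separation. Over 9 genes, each of these shares amounts to fewer than 2.

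The median log2 fold change of the members was -0.08, and that of all genes tested was -0.02. Individual members ranged from -0.20 for HLA-B to 0.18 for TAP2, with 3 above 0 and 6 below. The median size of the change, regardless of sign, was 0.125 on the log2 scale for the members and 0.192 for all genes tested. The 95% interval of every member included 0. Taken over the members, the lowest bound was -0.65 (TAPBP, a fold of 0.637) and the highest was 0.64 (TAP1, a fold of 1.56), which are the sizes of change that the spread between these cultures leaves inside the intervals. In bulk RNA, fewer cells expressing a gene and less RNA per cell cannot be told apart. The plot of fold changes sets the members beside RIPK4.

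**Figure D1:**
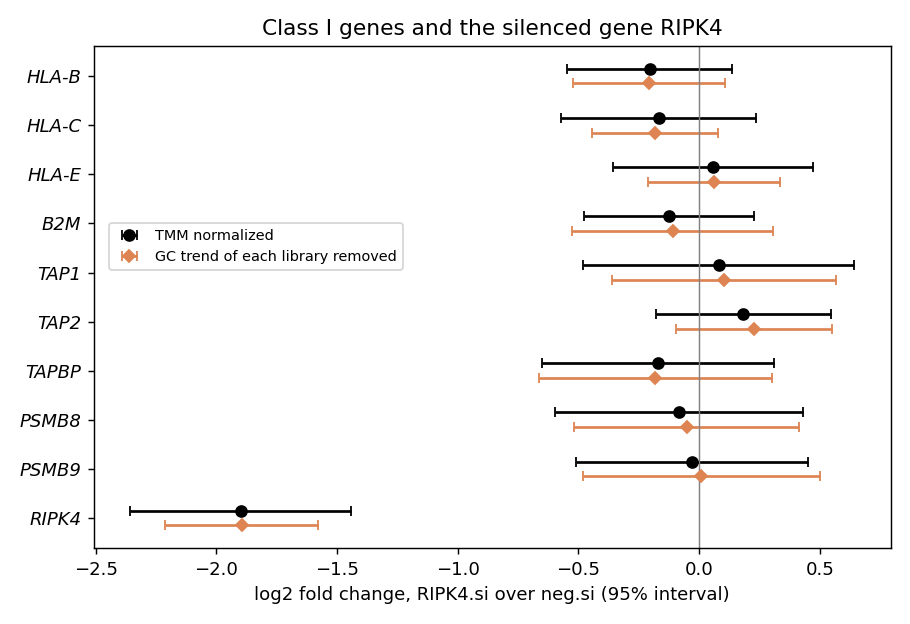
Log2 fold change, RIPK4.si over neg.si (horizontal axis), with the 95% interval of edgeR for the 9 class I genes and RIPK4, after TMM normalization (black circles) and after removal of the GC trend of each library (orange diamonds). All 9 class I intervals include 0 in both fits, while the RIPK4 interval runs from -2.36 to -1.44 after TMM normalization.

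Among the heavy chains, HLA-B, a classical molecule that presents peptides to CD8 T cells, was at 218, 233 and 205 CPM in neg.si replicates 1, 2 and 3 and at 189, 167 and 215 CPM in RIPK4.si replicates 1, 2 and 3. The groups overlapped only through RIPK4.si replicate 3, which lay above neg.si replicate 3. The mean was 219 ± 14.0 CPM in neg.si and 190.1 ± 23.9 CPM in RIPK4.si (SD, n = 3), a log2 fold change of -0.20 (95% interval -0.55 to 0.14, edgeR adjusted p = 0.754, two-sided exact permutation p = 0.2). An exact test of 3 libraries against 3 cannot give a p under 0.1.

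HLA-C, the other classical chain in the list and also a ligand of killer cell receptors, was at 225, 188 and 145 CPM in neg.si and at 162, 158 and 177 CPM in RIPK4.si, in the order of replicates 1, 2 and 3 that is kept below. All 3 RIPK4.si libraries lay between the highest and the lowest neg.si library. Its log2 fold change was -0.17 (95% interval -0.57 to 0.24, edgeR adjusted p = 0.862). At 60.9% GC over its merged exons, HLA-C was the member richest in G and C. Removing the GC trend took the SD of its log2 CPM in neg.si from 0.320 to 0.0304 and its standard error from 0.180 to 0.116, and left the log2 fold change at -0.18 (edgeR adjusted p = 0.523).

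HLA-E, which presents leader peptides of other class I chains to the CD94/NKG2 receptors of natural killer cells, was at 281, 255 and 185 CPM in neg.si and at 226, 274 and 250.5 CPM in RIPK4.si. Its RIPK4.si libraries again lay within the neg.si range. The log2 fold change was 0.06 (95% interval -0.36 to 0.47, edgeR adjusted p = 0.969). It was -0.10 without neg.si replicate 3, the lowest library, and the SD in neg.si went from 0.318 to 0.0902 after removal of the GC trend.

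B2M, the light chain common to every class I molecule, had the most counts of the members. Its level was 1193, 1225 and 1093 CPM in neg.si and 944, 1193 and 1083 CPM in RIPK4.si. RIPK4.si replicate 1 was the lowest library, and replicate 2 reached the level of neg.si replicate 1. The mean of 1170.3 ± 69.0 CPM in neg.si and 1073 ± 125 CPM in RIPK4.si gave a log2 fold change of -0.12 (95% interval -0.48 to 0.23, edgeR adjusted p = 0.887). B2M had the lowest GC content of the members (41.4%), and removal of the GC trend widened the SD of its log2 CPM in neg.si from 0.0863 to 0.287.

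**Figure D2:**
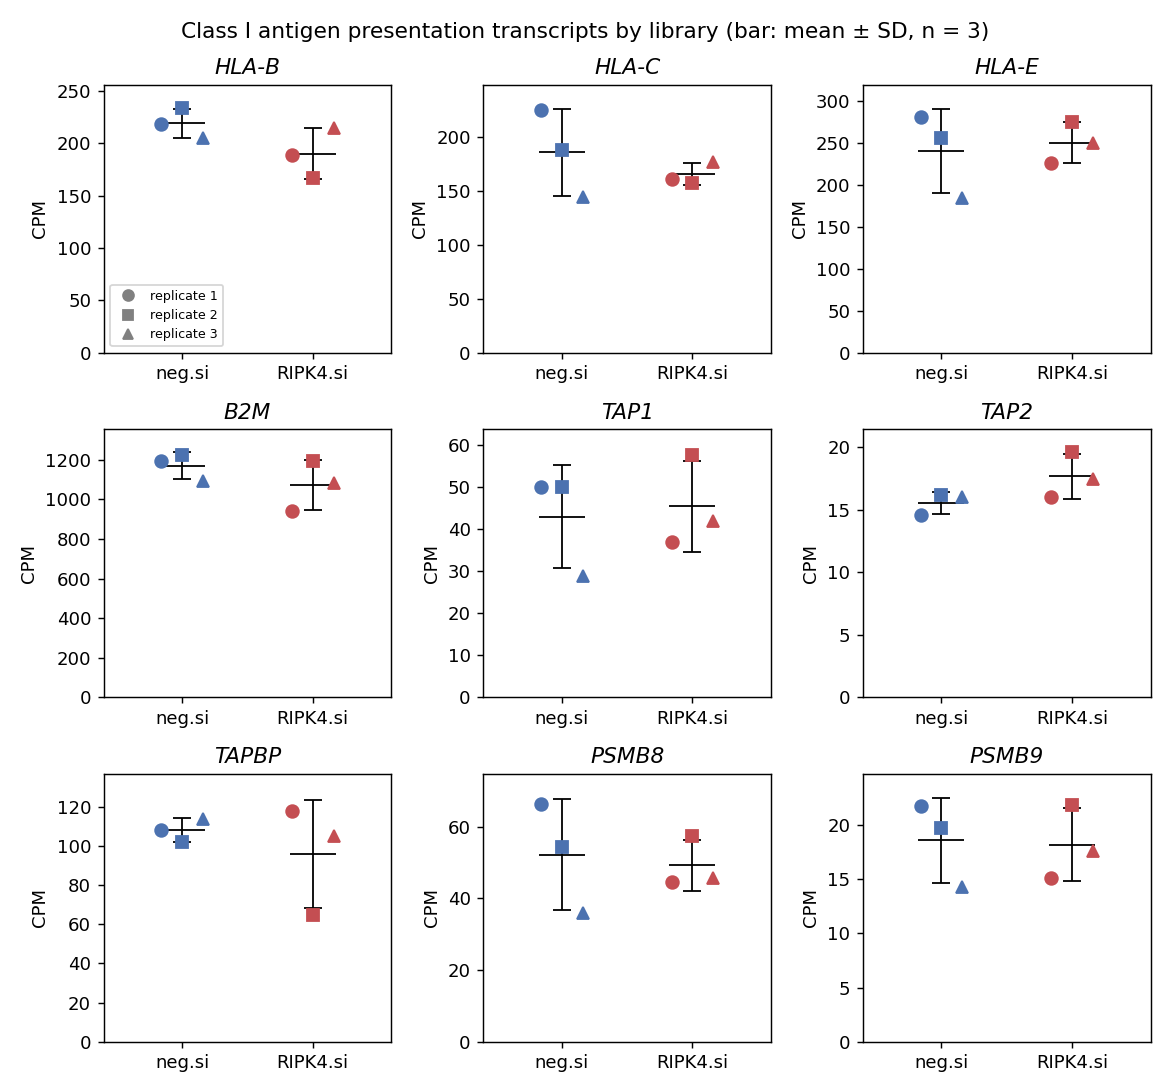
CPM (vertical axis, from 0) of each class I gene in the 3 neg.si libraries (blue) and the 3 RIPK4.si libraries (red), with marker shape giving the replicate and bars the mean ± SD. In every panel the red points overlap the range of the blue ones, and neg.si replicate 3 is the lowest library for HLA-C, HLA-E, TAP1, PSMB8 and PSMB9.

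The transporter subunits differed in their spread. TAP1 was at 50.02, 50.15 and 28.8 CPM in neg.si and at 36.9, 57.6 and 42.0 CPM in RIPK4.si. The lowest library was neg.si replicate 3 and the highest RIPK4.si replicate 2, and the groups overlapped. Its coefficient of variation was 28.6% in neg.si and 23.8% in RIPK4.si, its log2 fold change was 0.08, and its 95% interval, from -0.48 to 0.64, was the widest among the members (edgeR adjusted p = 0.967).

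TAP2, its partner in the transporter, was at 14.6, 16.15 and 15.99 CPM in neg.si and at 16.02, 19.6 and 17.5 CPM in RIPK4.si. Only RIPK4.si replicate 1 lay within the neg.si range, and the other RIPK4.si libraries were above it. TAP2 had the highest log2 fold change of the members, 0.18 (95% interval -0.18 to 0.55, edgeR adjusted p = 0.810, exact permutation p = 0.2), and it remained positive with each library left out in turn (0.11 to 0.26). Of its merged exon bases, 19.53% are shared with another annotated protein-coding gene on the same strand.

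TAPBP encodes tapasin, the chaperone that holds heavy chains at the transporter during loading. It was at 108, 102 and 114 CPM in neg.si and at 118, 65.0 and 105 CPM in RIPK4.si. The neg.si libraries were close together, with a coefficient of variation of 5.59%, and a single library, RIPK4.si replicate 2, lay far under the other 5. The log2 fold change of -0.17 (95% interval -0.65 to 0.31, edgeR adjusted p = 0.888) rested on that library, and without it the value was 0.06.

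The immunoproteasome genes followed TAP1. PSMB8, the chymotrypsin-like catalytic subunit, was at 66.4, 54.4 and 35.8 CPM in neg.si and at 44.7, 57.5 and 45.6 CPM in RIPK4.si. PSMB9, the catalytic subunit that takes the place of PSMB6, was at 21.8, 19.7 and 14.3 CPM in neg.si and at 15.1, 21.8 and 17.7 CPM in RIPK4.si. For both, the RIPK4.si libraries lay within the neg.si range, apart from RIPK4.si replicate 2 for PSMB9, which exceeded neg.si replicate 1 by less than the rounding shown. The log2 fold changes were -0.08 for PSMB8 (95% interval -0.60 to 0.43, edgeR adjusted p = 0.961) and -0.03 for PSMB9 (95% interval -0.51 to 0.45, edgeR adjusted p = 0.985). PSMB9 was 0.01 after removal of the GC trend, so its sign is not set by these data.

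Relative to the mean of the 6 libraries on the log2 CPM scale, TAP1, PSMB8 and PSMB9 were at -0.58, -0.47 and -0.35 in neg.si replicate 3 and at 0.42, 0.21 and 0.27 in RIPK4.si replicate 2. After removal of the GC trend the values were -0.44, -0.45 and -0.42 in neg.si replicate 3 and 0.41, 0.25 and 0.35 in RIPK4.si replicate 2. The count ratio of TAP1 to PSMB9, chosen after the values were seen and without removal of the GC trend, stayed between 2.02 and 2.64 in the 6 libraries and that of PSMB8 to PSMB9 between 2.51 and 3.04, while TAP1 to TAP2 ran from 1.80 to 3.43. The median over 8 proteasome partners was -0.34 in neg.si replicate 3 and 0.29 in RIPK4.si replicate 2, and -0.35 and 0.33 after removal of the GC trend, while PSME3 was at 0.05 and -0.04 before it.

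TAPBP took another course, at 0.18 in neg.si replicate 3 and -0.63 in RIPK4.si replicate 2. In the list of 10 genes of peptide loading and trimming the median in RIPK4.si replicate 2 was -0.35, with THOP1 at 0.38, CANX at -0.14 and TPP2 at -0.15. Among those picked after their values were seen, the lectin chaperone gene CALR was at -0.39 in RIPK4.si replicate 2, PDIA3, whose product forms a disulphide with tapasin in the loading complex, at -0.59, and UGGT1, a glucosyltransferase of glycoprotein quality control, at -0.64. In the same library HLA-B was at -0.29 and HLA-C at -0.14, while HLA-E was at 0.18 and B2M at 0.09. The map of levels by library shows these groups. For 8 of the 9 members, all but HLA-C, the range of the RIPK4.si libraries in CPM was wider than the difference between the group means.

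**Figure D3:**
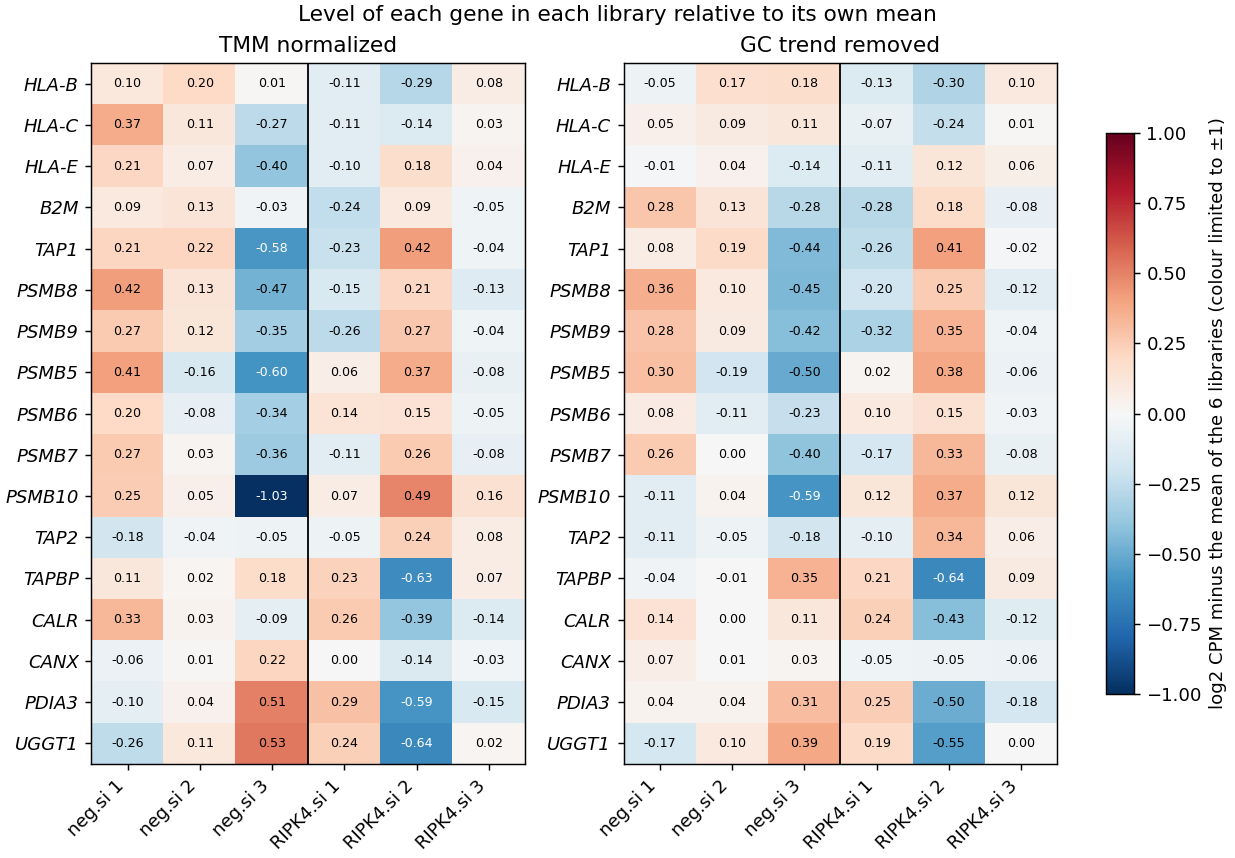
Log2 CPM minus the mean of the 6 libraries for each gene (printed in each cell and coloured from blue, below the mean, to red, above it), for class I genes and partners of the proteasome and the loading complex, after TMM normalization (left) and after removal of the GC trend (right). TAP1, PSMB8 and PSMB9 are low in neg.si replicate 3 and high in RIPK4.si replicate 2 in both panels, and TAPBP is lowest in RIPK4.si replicate 2, at -0.63 and -0.64.

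The genes outside the lists whose library profile lay nearest to the mean profile of the 9 members were GUCD1, ORAI3, WDR33, ADCY9 and GRAMD1A. The root mean square distance over the 6 libraries was 0.0213 for GUCD1 and 0.0354 for GRAMD1A on the log2 scale. The distance of a member from the same mean ranged from 0.0959 (HLA-E) to 0.351 (TAPBP), and the 5 genes are the nearest by choice, so their smaller distances are no result.

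Levels of different members were compared per length, as CPM per kilobase of merged exons in neg.si. B2M was highest at 375 ± 22.1, above 99.6% of the genes tested, and no library of HLA-E reached its range. HLA-E at 82.2 ± 17.1 and HLA-C at 74.1 ± 15.99 overlapped, and HLA-B followed at 47.4 ± 3.02, below both. TAPBP at 16.3 ± 0.910, PSMB8 at 14.999 ± 4.42, TAP1 at 9.07 ± 2.59 and PSMB9 at 5.57 ± 1.17 each overlapped the next in order, and TAP2 was lowest at 1.503 ± 0.0844, below all libraries of PSMB9. The merged exons of HLA-B are long (4623 bases, of which 47.26% are shared with other annotated genes on either strand, 30.74% with the pseudogene DHFRP2), and with the length of the canonical transcript, an alternative added after the annotation was seen, HLA-B came to 143 ± 9.09 and stood between B2M (1241 ± 73.2) and HLA-C (121 ± 25.99), overlapping the latter. TAP2 remained the lowest with that length, at 2.76 ± 0.155, so the transporter subunits were measured at unequal transcript levels with either length.

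In the immunoproteasome PSMB8, PSMB9 and PSMB10 take the places of PSMB5, PSMB6 and PSMB7, and the ratios of the pairs within a library do not depend on library scaling. PSMB8 to PSMB5, per kilobase, was 0.195, 0.238 and 0.212 in neg.si and 0.167, 0.174 and 0.187 in RIPK4.si. The RIPK4.si libraries all lay below the neg.si ones, with means of 0.176 ± 0.0105 and 0.215 ± 0.0213 (log2 difference -0.29). The two-sided exact permutation p was 0.1, the smallest that 3 against 3 allow, and 0.2 after adjustment over the 4 ratios compared, so the difference did not pass. Neither gene of the pair passed alone, PSMB5 being at 109 ± 38.6 CPM in neg.si and 125 ± 20.2 CPM in RIPK4.si.

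PSMB10 to PSMB7 went the other way, from 0.0186 ± 0.00473 in neg.si to 0.0247 ± 0.000460 in RIPK4.si, again without overlap (log2 difference 0.44, exact permutation p = 0.1, adjusted 0.2). That ratio was 0.0211, 0.0216 and 0.0132 in neg.si, and without neg.si replicate 3 the log2 difference was 0.21. PSMB9 to PSMB6 (0.0915 ± 0.00671 against 0.0817 ± 0.0147) and TAP1 to TAP2 (6.08 ± 1.89 against 5.57 ± 0.752) overlapped between the groups, with exact permutation p of 0.5 and 0.8, adjusted 0.667 and 0.8. The 3 immunoproteasome ratios therefore did not share a direction, and with the GC trend removed the log2 differences of all 4 ratios were -0.27, 0.35, -0.15 and -0.11, in the order given here.

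**Figure D4:**
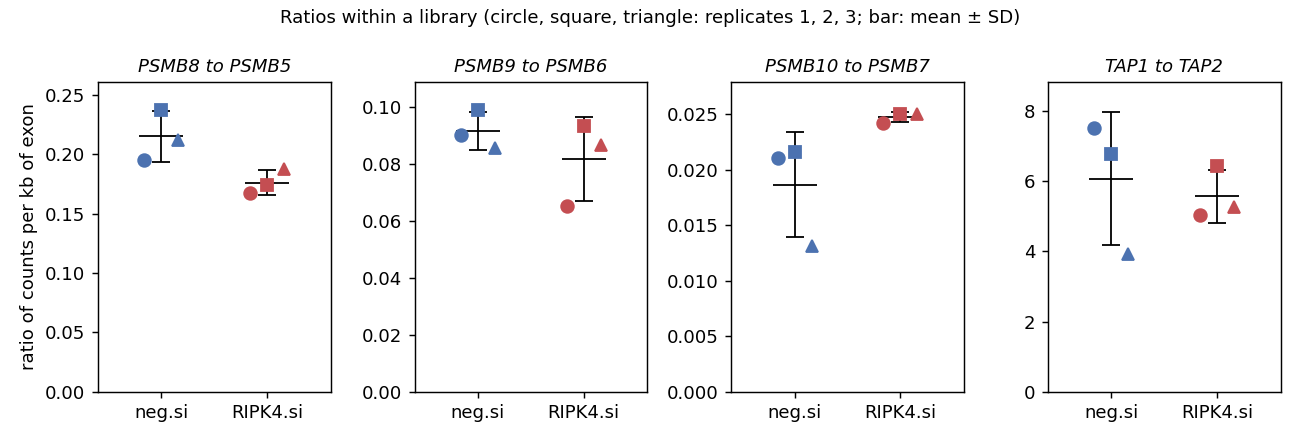
Ratio of counts per kilobase of exon within a library (vertical axis, from 0) for the pairs named above each panel, in neg.si (blue) and RIPK4.si (red), with marker shape giving the replicate and bars the mean ± SD of 3 libraries. The groups separate for PSMB8 to PSMB5 and, in the opposite direction, for PSMB10 to PSMB7, and overlap in the other panels.

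The remaining genes of the pathway were taken as lists, and their signs stand beside those of all 16297 genes tested, of which 7596 had a positive and 8701 a negative log2 fold change. Of 5 other class I heavy chain genes tested, edgeR called 0 against 0.767% of all genes, and DESeq2 called 1 against 2.78%. At an unadjusted edgeR p under 0.05 it was 2 of the 5 against 10.8%, and 1 had a positive and 4 a negative log2 fold change. The smallest p belonged to FCGRT, the heavy chain of the neonatal Fc receptor, which pairs with B2M but carries IgG instead of peptide. FCGRT was at 6.64 ± 0.871 CPM in neg.si and 3.19 ± 0.139 CPM in RIPK4.si, without overlap, for a log2 fold change of -1.06 (edgeR adjusted p = 0.0507, DESeq2 adjusted p = 0.00217, edgeR adjusted p = 0.0128 with the GC trend removed). It lay just outside the threshold in edgeR and inside it in the other 2 tests, and with a library left out its edgeR adjusted p was 0.0198 without neg.si replicate 3 and between 0.103 and 0.316 without any other. HFE, a B2M partner in iron control, had the next smallest p, with a log2 fold change of 0.47 (edgeR adjusted p = 0.287).

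Of 10 genes of peptide loading and trimming, edgeR and DESeq2 called 0, against 0.767% and 2.78% of all genes. At an unadjusted edgeR p under 0.05 it was 1 of the 10 against 10.8%, and 2 had a positive and 8 a negative log2 fold change. TAPBPL, a tapasin relative that edits bound peptides, was at 6.02 ± 0.294 CPM in neg.si and 3.82 ± 0.993 CPM in RIPK4.si (log2 fold change -0.66, edgeR adjusted p = 0.318), and ERAP1, which trims peptides in the endoplasmic reticulum, had a log2 fold change of -0.23 (edgeR adjusted p = 0.793). Of 8 proteasome partners, 0 were called by edgeR or DESeq2 and 0 had an unadjusted edgeR p under 0.05, beside the same shares of all genes. Their log2 fold change was positive for 7 and negative for 1. The smallest p were those of the activator subunits PSME3 (log2 fold change -0.23, edgeR adjusted p = 0.626) and PSME2 (log2 fold change 0.21, edgeR adjusted p = 0.770). The median log2 fold change was -0.14 for loading and trimming and 0.17 for the proteasome partners.

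Of 15 regulators of class I transcription, 0 were called by edgeR or DESeq2, against 0.767% and 2.78% of all genes. At an unadjusted edgeR p under 0.05 it was 1 of the 15 against 10.8%, and 14 had a negative log2 fold change, with a median of -0.15. CIITA, the transactivator of class II genes, had the smallest p and no overlap between the groups (24.6 ± 1.66 CPM in neg.si, 16.9 ± 1.25 CPM in RIPK4.si, log2 fold change -0.55, edgeR adjusted p = 0.181). NFKB1, an NF-κB subunit, followed with a log2 fold change of -0.23 (edgeR adjusted p = 0.628). Of 9 MHC class II pathway genes, 0 were called by edgeR or DESeq2, 1 had an unadjusted edgeR p under 0.05, beside the same shares of all genes, and 8 were negative. The smallest p were those of the peptide exchange factor genes HLA-DMA (log2 fold change -0.38, edgeR adjusted p = 0.435) and HLA-DMB (log2 fold change -0.34, edgeR adjusted p = 0.546).

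Genes upstream of and beside the class I pathway in the interferon response were counted in the same way. Of 12 genes of interferon signalling tested, edgeR called 0 against 0.767% of all genes, and DESeq2 called 1 against 2.78%. At an unadjusted edgeR p under 0.05 it was 1 of the 12 against 10.8%, and 6 log2 fold changes were positive and 6 negative. STAT2, a transcription factor of the type I interferon signal, was at 48.2 ± 6.596 CPM in neg.si and 75.01 ± 7.72 CPM in RIPK4.si, without overlap, for a log2 fold change of 0.64 (edgeR adjusted p = 0.137, DESeq2 adjusted p = 0.0236, edgeR adjusted p = 0.0453 with the GC trend removed). With a library left out its edgeR adjusted p lay between 0.0718 and 0.545. TYK2, a receptor kinase, had a log2 fold change of 0.25 (edgeR adjusted p = 0.769). Of 22 interferon-stimulated genes tested, edgeR called 1, which rose, against 0.767% of all genes in either direction, and DESeq2 called 2 higher, against 2.78%. At an unadjusted edgeR p under 0.05, 3 were higher and 0 lower, against 10.8% of all genes in either direction. The log2 fold changes were positive for 17 and negative for 5. The gene called by edgeR was GBP1, an interferon-induced GTPase, at 3.31 ± 0.497 CPM in neg.si and 8.10 ± 0.495 CPM in RIPK4.si (log2 fold change 1.29, edgeR adjusted p = 0.0329). Its adjusted p was 0.196 without neg.si replicate 2 and 0.139, 0.120 and 0.214 without RIPK4.si replicate 1, 2 or 3, while the log2 fold change lay between 1.18 and 1.39. OAS2, an interferon-induced sensor of double-stranded RNA, was called by DESeq2 and not by edgeR (log2 fold change 0.93, edgeR adjusted p = 0.179, DESeq2 adjusted p = 0.0217). With the GC trend removed its edgeR adjusted p was 0.0887. The median of that list was 0.19, beside -0.08 for the class I members. By library, its median relative to the mean of the 6 libraries was -0.21, 0.19 and -0.35 in neg.si replicates 1, 2 and 3. In RIPK4.si replicates 1, 2 and 3 it was -0.02, 0.22 and 0.195, so the groups overlapped. After removal of the GC trend it was -0.49 in neg.si replicate 3 and 0.28 in RIPK4.si replicate 2.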

How the data were processed

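RNA of 6 WM266.4 cultures was sequenced as poly(A) libraries, with paired reads on the BGISEQ-500. The authors removed adapters with Cutadapt, aligned the reads with TopHat to GRCh38.p13 and used HTSeq, with strand ignored, to assign pairs to genes. How HTSeq treated pairs on more than 1 gene is not given in the sources used here. Each deposited count is a raw whole number of pairs, and genes whose 6 libraries sum to under 6 are not listed. The deposited signal columns hold counts scaled by DESeq2 size factors, computed by the authors, and were not used in tests. Further columns hold the authors' own fold changes and p-values and were not used.

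Counts were tested with edgeR 4.0.16 in R 4.3.3 (TMM, its filter on low counts, quasi-likelihood test, Benjamini-Hochberg adjustment over all genes tested, called at an adjusted p under 0.05). The study's methods used DESeq2, which was run here (version 1.42.0) as an alternative. CPM are counts scaled to the TMM-normalized library size, and log2 CPM used a prior count of 2. Lengths, GC content and overlaps came from GENCODE release 44, in which 24416 gene identifiers were found. GC content was taken over the merged exons of all annotated transcripts. For HLA-B (4623 bases) and B2M (3121 bases) these are longer than the canonical transcript (1536 and 943 bases), whose GC content was not used. The GC trend of each library was removed by a lowess with a span of 0.3, entered as an offset. The other alternatives were DESeq2's size factors or upper-quartile scaling, no filter, a minimum of 10 counts in all libraries, the replicate number as a block, and leaving out 1 library at a time. Plots were drawn with matplotlib 3.10.9.

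The members and lists were chosen with earlier results of these data known, as were the alternatives. Genes named were all 9 members, RIPK4, the partners in the ratios, every called gene of a list or otherwise its 2 genes with the smallest p, and the 5 genes with the nearest library profile. Other genes with values (CALR, CANX, PDIA3, UGGT1, THOP1, TPP2, OAS2, TYR, DCT, MLANA, TYRP1, MITF, CD3E, ITGAM) were named after their values were seen. The replicates are described by the study as biological, and the p-values measure the spread between these cultures.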

Additional observations from a re-analysis of the deposited data

How the results depend on the processing

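The count of class I members called was 0 under every alternative, and the smallest unadjusted p of any member under any of them was 0.0673 (HLA-C, without neg.si replicate 3). Of the 72 member values under alternatives that kept all libraries, 70 kept their direction, and PSMB9 turned to 0.0087 with the GC trend removed and to 0.0144 with the replicate block and the GC trend removed. Leaving out 1 library at a time, log2 fold changes ran from -0.3159 to 0.0078 for HLA-C, from -0.0952 to 0.2028 for HLA-E, from -0.1334 to 0.2234 for TAP1, from -0.3355 to 0.0566 for TAPBP, from -0.29 to 0.143 for PSMB8 and from -0.1853 to 0.1171 for PSMB9, so none of these signs is fixed, while HLA-B, B2M and TAP2 kept theirs. The median of the members then ran from -0.1672 to 0.1171. All genes called numbered 125 in edgeR, 430 in DESeq2, 535 with the GC trend removed and 426 with the replicate block and the GC trend removed. They ranged from 0 to 295 with a library left out. Leaving out neg.si replicate 1 gave 70, neg.si replicate 3 gave 295 and RIPK4.si replicate 2 gave 4. Leaving out neg.si replicate 2, RIPK4.si replicate 1 or RIPK4.si replicate 3 gave 0, with 1153, 1426 and 1086 genes at unadjusted p under 0.05, so a count of 0 members in those fits says nothing about the members. DESeq2 was not run with a library left out. Calls over the 7 pathway lists numbered 1 in edgeR, 4 in DESeq2, 2 with the replicate block, and 3 with the GC trend removed, with or without the block, and ranged from 0 to 2 with a library left out. The log2 difference of the ratio ran from -0.3524 to -0.2108 for PSMB8 to PSMB5, from -0.2833 to -0.0236 for PSMB9 to PSMB6, from 0.2124 to 0.5704 for PSMB10 to PSMB7 and from -0.3659 to 0.0997 for TAP1 to TAP2 with a library left out. The replicate numbers were not taken to pair the cultures, since the labels give only numbers, same-numbered libraries correlated at -0.242, 0.251 and 0.346 in their deviations from the group means and not every library correlated best with its own number. The block gave 131 calls over all genes and 0 among the members. Members had between 444 (PSMB9) and 36954 (B2M) counts in a library.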
